A study of Rattus norvegicus with 12 samples.

Results

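The transcripts of 10 genes of glucose uptake and glycolysis were followed in brain RNA: the glucose transporters Slc2a1 and Slc2a3, the hexokinases Hk1, Hk2 and Hk3, the regulator Pfkfb3, the enzymes Pgk1 and Pkm, and the lactate dehydrogenase subunits Ldha and Ldhb. They were taken by symbol from a table of 31177 rows; each symbol stood in 1 row, and all 10 were among the 18850 genes with enough counts to be tested. The 12 libraries formed 3 groups of 4: AD-HFD, labelled as an Alzheimer's disease model on a high-fat diet, AD, labelled as the Alzheimer's model, and Sham, the control. The labels do not say how the disease was modelled, which strain, age or brain region was used, or how long the diet lasted; a diet-only group was not analysed here. Sample titles say mouse, yet the organism is given as Rattus norvegicus and the table carries rat Ensembl identifiers, so the genes are treated as rat genes. All groups were kept in a pathogen-free facility with free access to food and water. Nothing in the labels says that each library came from a separate animal, so the p-values measure the spread between these libraries, which may be technical.

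Glucose enters the brain through facilitative transporters. Slc2a1 encodes GLUT1, the transporter of the blood-brain barrier endothelium and of astrocytes, and Slc2a3 encodes GLUT3, the main transporter of neurons. Hexokinases then trap glucose as glucose 6-phosphate: Hk1 is the general brain enzyme, Hk2 is inducible and hypoxia-responsive, and Hk3 is found mainly in myeloid cells. Pfkfb3 makes fructose 2,6-bisphosphate, the activator of phosphofructokinase. Pgk1 and Pkm carry out the ATP-producing steps of the lower pathway. Lactate dehydrogenase is a tetramer of Ldha and Ldhb subunits; Ldha-rich forms are typical of glycolytic tissue, and Ldhb-rich forms of oxidative tissue and neurons.

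Total counts ran from 26668974 to 35351792 per library. Levels are given in CPM (counts scaled to a common TMM-adjusted library size) and differences as log2 fold changes ± SE. CPM are not divided by gene length, so they compare libraries for 1 gene and not genes with each other. AD-3, for example, is library 3 of the AD group. Markers of brain tissue were present in every library: the summed level of 12 neuron markers was 2246 to 9111 CPM in AD-HFD, 8239 to 9825 CPM in AD and 10248 to 13261 CPM in Sham. The libraries did not form uniform groups. AD-1, AD-2 and AD-4 had low levels of 9 cortical excitatory neuron markers (summed 215 to 431 CPM) and high levels of 10 thalamus markers (445 to 1814 CPM). AD-3 stood apart from them, with 2201 and 146 CPM. AD-HFD-3 was the AD-HFD library with the highest cortical sum (2952 CPM against 622 to 1026 CPM in the other AD-HFD libraries), and AD-HFD-4 the one with the highest endothelial and red blood cell sums (3229 and 4223 CPM). The Sham libraries differed too: 9 choroid plexus markers summed to 2.86, 4697, 4576 and 7.76 CPM in Sham-1 to Sham-4. Their sum was 10535 CPM in AD-HFD-1, 557 CPM in AD-HFD-2 and at most 31.4 CPM in the other AD-HFD and AD libraries. In these tissue samples a smaller share of a cell type and less RNA per cell cannot be told apart.

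The members split into genes that were higher in AD-HFD brain and genes that were not. Compared with Sham, Slc2a1 was 4.05-fold, Hk2 6.06-fold and Pfkfb3 2.78-fold higher in AD-HFD, Hk3 was present where Sham had no count, and Ldhb was lower, at 0.554 of the Sham level. Thus 5 of the 10 members passed the test, 4 higher and 1 lower. Of all 18850 genes tested in this comparison, 32.7% passed, 19.7% higher and 12.9% lower. The median log2 fold change of the 10 members was 0.40, against 0.033 for all genes, and it stays the same with Hk3 set at its lower bound. In AD against Sham none of the members passed, against 6.23% of all genes, and in AD-HFD against AD none passed either, against 0.0106%.

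The sequence just upstream of several of these genes holds the core letters bound by hypoxia-inducible factors, ACGTG or GCGTG, and 4 stretches are shown because Slc2a1 and Pfkfb3 were called higher, Ldhb was called lower and Ldha, a textbook hypoxia target, passed in no comparison. RefSeq promoters on build GRCr8 were matched by symbol for 8 of the 10 members (not Slc2a3 and Pgk1), and the 250 bases before the annotated start were searched on both strands. The capitals mark each match to ACGTG or GCGTG or to their reverse complements CACGT and CACGC; where CACGTG stands, the 2 strands' matches overlap and are counted as 2.
Slc2a1, chr5:138002272-138002521, plus strand: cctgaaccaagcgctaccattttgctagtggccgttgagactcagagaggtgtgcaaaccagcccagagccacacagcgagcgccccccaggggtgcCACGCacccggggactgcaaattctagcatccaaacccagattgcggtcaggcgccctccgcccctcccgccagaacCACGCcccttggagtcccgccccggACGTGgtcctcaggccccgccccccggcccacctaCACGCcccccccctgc
Pfkfb3, chr17:71944683-71944932, plus strand: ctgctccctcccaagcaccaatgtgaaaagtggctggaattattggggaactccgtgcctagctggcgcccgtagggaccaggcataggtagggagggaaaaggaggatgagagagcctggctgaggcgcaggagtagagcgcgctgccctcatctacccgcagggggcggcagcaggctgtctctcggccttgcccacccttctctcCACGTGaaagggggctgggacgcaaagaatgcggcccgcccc
Ldha, chr1:106507842-106508091, plus strand: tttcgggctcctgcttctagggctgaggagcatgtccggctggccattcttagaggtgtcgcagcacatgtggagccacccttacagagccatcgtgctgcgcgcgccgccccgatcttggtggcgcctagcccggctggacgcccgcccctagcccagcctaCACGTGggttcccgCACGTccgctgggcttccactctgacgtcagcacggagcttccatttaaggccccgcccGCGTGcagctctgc
Ldhb, chr4:177177409-177177658, minus strand: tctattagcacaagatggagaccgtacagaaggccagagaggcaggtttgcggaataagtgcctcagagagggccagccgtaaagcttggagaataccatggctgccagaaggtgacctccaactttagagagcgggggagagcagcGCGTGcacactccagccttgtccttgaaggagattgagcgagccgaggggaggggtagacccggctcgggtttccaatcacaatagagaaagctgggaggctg
Slc2a1 had 4 matches, Ldha 4, Pfkfb3 2 and Ldhb 1. Hk3 had 1, the 2 annotated starts of Hk1 had 1 and 0, and none was found in this window for Hk2 and Pkm. Hk2 and Hk3 were also called higher, so the 4 stretches shown do not stand for all called members. Of all 33469 promoters of the table, 16.6% held ACGTG, 25.9% GCGTG and 36.7% either, in the same window. A match describes these letters only, and a gene can have other starts and distant sites.

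Of the glucose transporters, Slc2a1 rose in AD-HFD against Sham and Slc2a3 passed in no comparison. Slc2a1 stood at 327, 386, 395 and 702 CPM in the 4 AD-HFD libraries, at 181, 195, 556 and 182 CPM in AD-1 to AD-4 and at 111, 109, 118 and 109 CPM in Sham. All AD-HFD and all AD libraries lay above every Sham library, and within AD only AD-3 reached the AD-HFD range. The log2 fold change was 2.02 ± 0.373 for AD-HFD against Sham (edgeR adjusted p = 0.00408), 1.32 ± 0.366 in AD over Sham (edgeR adjusted p = 0.0537, outside the 0.05 threshold) and 0.70 ± 0.361 in AD-HFD over AD (edgeR adjusted p = 0.209). Endothelial markers moved with Slc2a1 in part of the libraries: 11 markers, of which 10 were tested and 7 rose and 1 (Ly6e) fell in AD-HFD against Sham, summed to 408 to 3229 CPM in AD-HFD, 394 to 471 CPM in AD and 366 to 447 CPM in Sham. The defining tight-junction gene Cldn5 had no count in 10 of the 12 libraries, AD-HFD-4 included, and Pecam1 was not matched by symbol. In AD-HFD-3 and AD-3, where the endothelial sums were 408 and 463 CPM, Slc2a1 was at 395 and 556 CPM. Single endothelial markers differed there: Kdr, Cdh5, Esam, Flt1 and Vwf were above every Sham library in both. Abcb1a, Slco1a4, Emcn and Ly6e were below every Sham library in both, and Tek was above only in AD-3. Kdr was at 29.2 and 50.6 CPM, against 10.1 to 15.4 CPM in Sham. Slco1a4 was at 10.5 and 7.13 CPM, against 51.9 to 78.6 CPM in Sham. Of 10 astrocyte markers, 1 rose and 1 fell in AD-HFD against Sham. Their sum was 2584 to 6801 CPM in AD-HFD, 4236 to 4762 CPM in AD and 2831 to 3525 CPM in Sham. Gfap alone made up 3891 CPM of it in AD-HFD-2 and 2518 CPM in AD-3. Only 2 of the 10 markers had a log2 fold change above 0 in AD-HFD against Sham (median -0.22). Of 8 meningeal fibroblast markers, 7 rose and none fell. They summed to 209 to 986 CPM in AD-HFD, 89.0 to 165 CPM in AD and 94.4 to 178 CPM in Sham. The part of endothelial cells, astrocytes and fibroblasts in the Slc2a1 result was not tested. Slc2a3 stood at 28.5, 25.8, 54.5 and 22.0 CPM in AD-HFD, at 24.3, 23.9, 39.1 and 25.0 CPM in AD and at 36.3, 26.2, 32.2 and 42.5 CPM in Sham. The groups overlapped, AD-HFD-3 was the highest library, and no comparison passed (log2 -0.07 ± 0.283 for AD-HFD against Sham, -0.29 ± 0.284 in AD over Sham, 0.22 ± 0.284 in AD-HFD over AD).

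**Figure D1:**
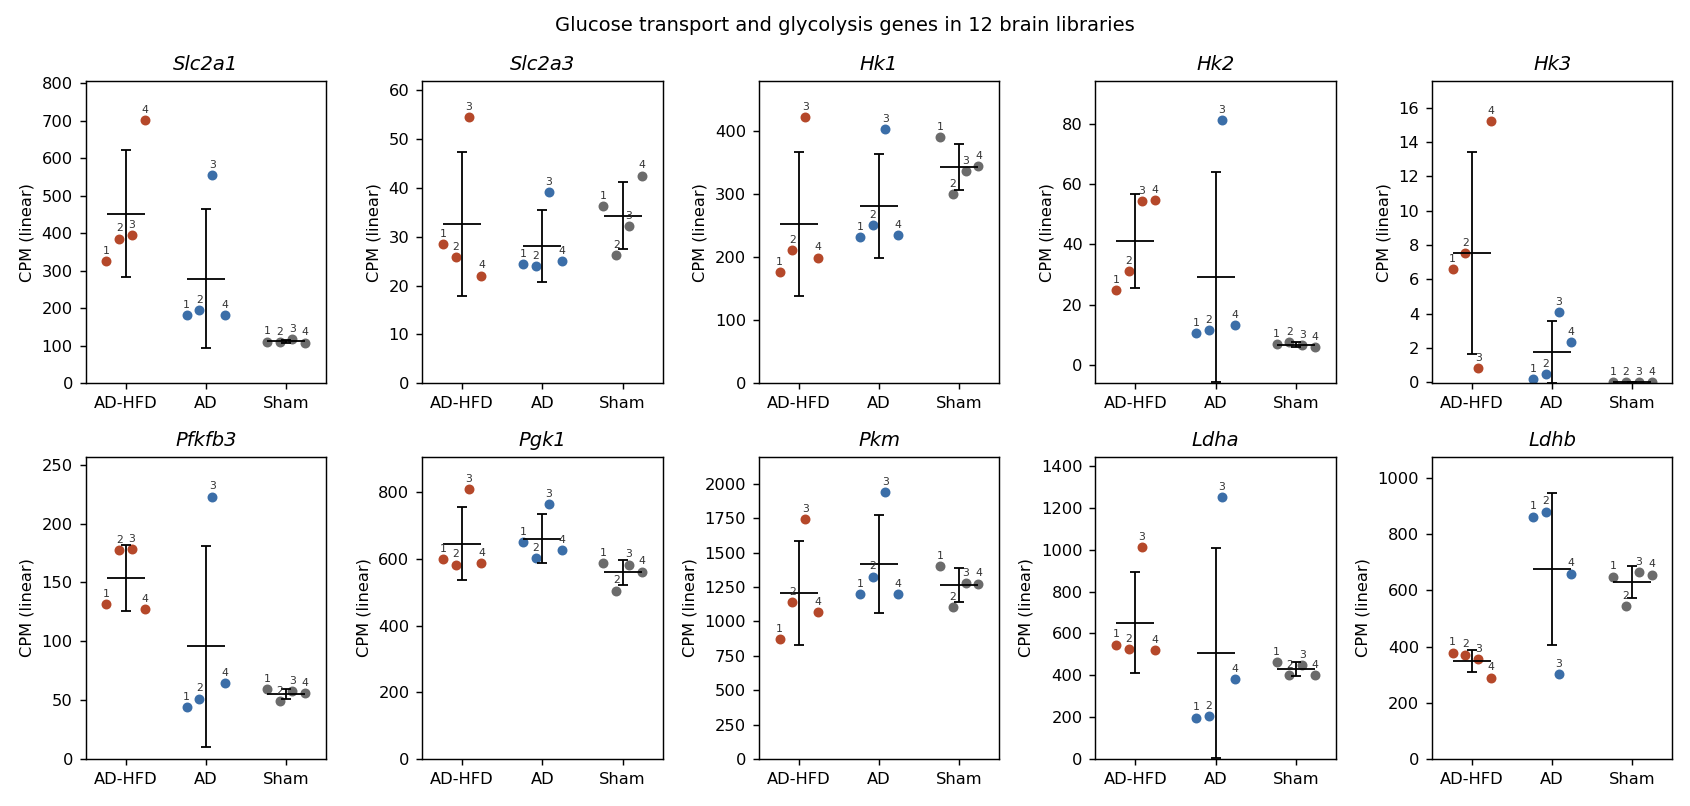
Levels of the 10 genes in CPM on linear axes; each point is 1 library, labelled with its replicate number, and the bars are the group mean ± SD (n = 4). Slc2a1, Hk2 and Pfkfb3 were higher in every AD-HFD library than in any Sham library, Ldhb was lower, and AD-3 was far above the other AD libraries for Slc2a1, Hk2, Pfkfb3 and Ldha.

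Of the 3 hexokinases, Hk2 and Hk3 rose in AD-HFD against Sham and Hk1 did not pass. Hk2 stood at 24.8, 31.1, 54.3 and 54.8 CPM in AD-HFD, at 10.7, 11.7, 81.2 and 13.3 CPM in AD and at 6.98, 7.73, 6.60 and 5.92 CPM in Sham. Every AD-HFD and AD library exceeded every Sham library, and AD-3 was the highest of all 12. The log2 fold change was 2.60 ± 0.625 for AD-HFD against Sham (edgeR adjusted p = 0.0108), 2.10 ± 0.616 in AD over Sham (edgeR adjusted p = 0.0642) and 0.50 ± 0.583 in AD-HFD over AD (edgeR adjusted p = 0.583). Without AD-3, the AD against Sham value was 0.80, against 2.10 with it.

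Hk1, the constitutive enzyme, stood at 177, 211, 421 and 199 CPM in AD-HFD, at 232, 251, 403 and 235 CPM in AD and at 389, 300, 337 and 344 CPM in Sham. AD-HFD-3 and AD-3 were the highest of the 12 libraries, and the other 6 libraries of the AD-HFD and AD groups lay below every Sham library. No comparison passed (log2 -0.44 ± 0.275 for AD-HFD against Sham, edgeR adjusted p = 0.226; -0.29 ± 0.274 for AD against Sham), and without AD-HFD-3 the value for AD-HFD against Sham was -0.81 and passed (edgeR adjusted p = 0.00747). Of 12 neuron markers, 8 fell and none rose in AD-HFD against Sham (median log2 -1.21). Within AD-HFD their sum was high where Hk1 was high, at 9111 CPM in AD-HFD-3 against 2246 to 4519 CPM in the other AD-HFD libraries. Within AD it was not: AD-3, with the highest Hk1, had the lowest sum, 8239 CPM against 8251 to 9825 CPM. Single neuron markers differed: within AD, Rbfox3, Syt1, Snap25 and Eno2 were highest in AD-3, and Nefm, Stmn2, Gap43, Syp and Uchl1 lowest. The cortical excitatory marker sum was 2952 CPM in AD-HFD-3 against 622 to 1026 CPM in the other AD-HFD libraries. It was 2201 CPM in AD-3 against 215 to 431 CPM in the other AD libraries, and 3041 to 4536 CPM in Sham. The part of both marker sets in the Hk1 result was not tested.

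Hk3 had 201, 236, 27 and 457 counts in the AD-HFD libraries (6.60, 7.52, 0.844 and 15.2 CPM), 5, 16, 133 and 65 counts in AD (0.173, 0.467, 4.09 and 2.36 CPM) and no count in any Sham library. Set against the floor of 3 counts over the Sham group (0.0240 CPM), the AD-HFD level of Hk3, as summed counts over summed library sizes, was at least 309-fold higher (edgeR adjusted p = 0.00767). The AD level, formed in the same way, was at least 73.9-fold higher, which did not pass (edgeR adjusted p = 0.0799). AD-HFD exceeded AD in mean, at 7.54 ± 5.90 CPM and 1.77 ± 1.82 CPM (SD, n = 4 each), but the libraries overlapped (log2 2.08 ± 0.919, edgeR adjusted p = 0.163). Myeloid and leukocyte markers moved with it. Of 15 blood leukocyte and border macrophage markers, 9 were tested and 7 rose and none fell in AD-HFD against Sham, among them S100a8, S100a9, Csf3r and Cd163. Their sum was 36.8 to 340 CPM in AD-HFD, 35.9 to 64.0 CPM in AD and 4.83 to 9.87 CPM in Sham. Of 14 microglia markers, 13 were tested and 9 rose and 1 (P2ry12) fell, and the sum was 504 to 970 CPM in AD-HFD, 364 to 597 CPM in AD and 280 to 315 CPM in Sham. S100a8 had no count in Sham-2, the neutrophil granule genes Elane and Mpo stayed under 1 CPM in every library, and the microglial gene Siglech had no count in 9 libraries. The order of the libraries differed between Hk3 and the leukocyte sum in places. AD-1 had 40.9 CPM of the leukocyte markers, AD-HFD-3 36.8 CPM and AD-4 35.9 CPM, while Hk3 was at 0.173, 0.844 and 2.36 CPM. The microglia sum was 364, 504 and 524 CPM in these libraries. The part of these cells in the result was not tested.

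Pfkfb3, which sets the pace of phosphofructokinase, stood at 132, 178, 178 and 127 CPM in AD-HFD, at 44.1, 51.3, 223 and 64.2 CPM in AD and at 59.1, 49.1, 57.3 and 55.8 CPM in Sham. AD-HFD did not overlap Sham, while AD-1 was below, AD-4 just above and AD-3 far above the Sham range. The log2 fold change was 1.47 ± 0.433 for AD-HFD against Sham (edgeR adjusted p = 0.0238) and 0.79 ± 0.428 for AD against Sham (edgeR adjusted p = 0.286), and 0.68 ± 0.426 in AD-HFD over AD (edgeR adjusted p = 0.292). Without AD-3, AD against Sham gave -0.058. The AD-HFD call was lost without AD-HFD-2 or any 1 Sham library (edgeR adjusted p 0.0537 to 0.0617), with the log2 fold change at 1.34 or more.

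**Figure D2:**
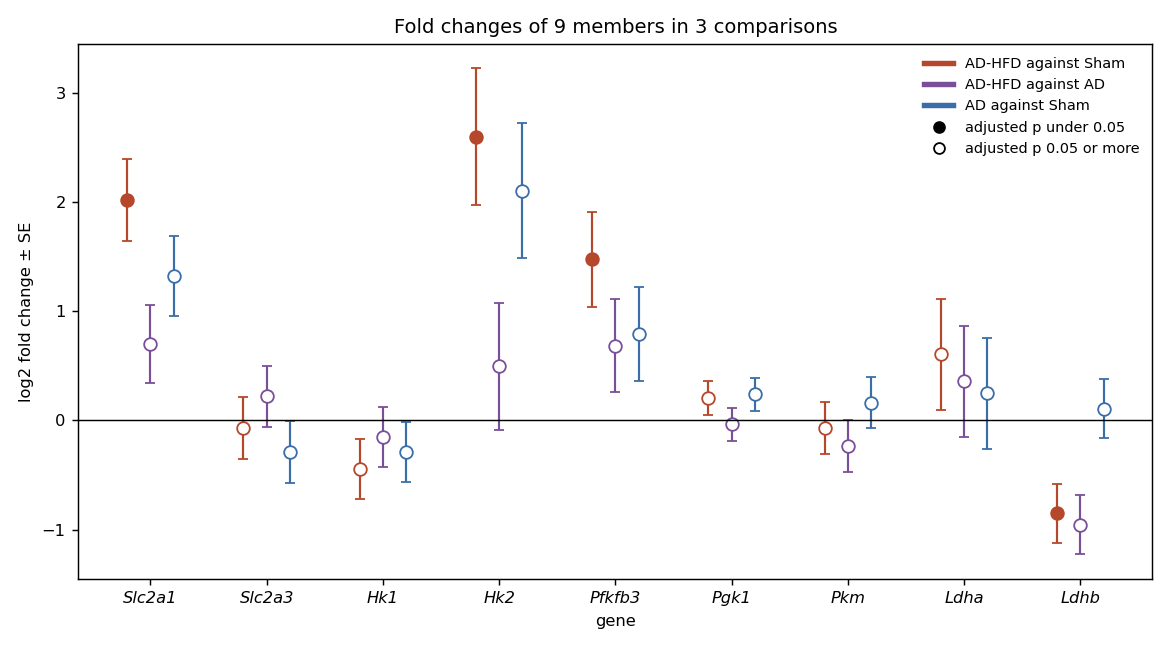
Log2 fold changes of 9 members with SE bars in 3 comparisons, AD-HFD against Sham, AD-HFD against AD and AD against Sham; filled points passed at an adjusted p under 0.05. Hk3 is left out because Sham had no count, and Slc2a1, Hk2, Pfkfb3 (higher) and Ldhb (lower) are the filled points, all in AD-HFD against Sham.

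The lower-pathway genes Pgk1 and Pkm passed in no comparison. Pgk1, which makes the first ATP of the pathway, stood at 600, 582, 809 and 588 CPM in AD-HFD, at 650, 602, 765 and 625 CPM in AD and at 588, 505, 583 and 562 CPM in Sham. All AD libraries lay just above all Sham libraries, but the difference did not pass (log2 0.24 ± 0.152, edgeR adjusted p = 0.365), nor did that for AD-HFD against Sham (log2 0.20 ± 0.152). Pkm, pyruvate kinase, stood at 870, 1139, 1743 and 1066 CPM in AD-HFD, at 1196, 1326, 1942 and 1198 CPM in AD and at 1400, 1103, 1280 and 1274 CPM in Sham. The groups overlapped, with AD-3 and AD-HFD-3 highest, and no comparison passed (log2 -0.07 ± 0.237 for AD-HFD against Sham, 0.16 ± 0.237 for AD against Sham). Reads of Pgk1, Pkm and Ldha are uncertain where processed copies of these genes could share them.

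Of the lactate dehydrogenase subunits, Ldhb fell in AD-HFD against Sham and Ldha did not pass. Ldha stood at 546, 523, 1014 and 519 CPM in AD-HFD, at 197, 203, 1251 and 381 CPM in AD and at 463, 401, 450 and 400 CPM in Sham. The AD-HFD libraries all exceeded the Sham libraries, but 3 of the AD libraries lay below them and AD-3 was the highest of the 12. The edgeR SE rests on the spread within all 3 groups, so the spread within AD also enters the AD-HFD against Sham test. By edgeR no comparison passed (log2 0.60 ± 0.507 for AD-HFD against Sham, adjusted p = 0.373; 0.25 ± 0.506 for AD against Sham, adjusted p = 0.808; 0.36 ± 0.506 in AD-HFD over AD, adjusted p = 0.654). Without AD-3 the AD against Sham value was -0.72, the opposite direction, and did not pass either (edgeR adjusted p = 0.140).

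Ldhb stood at 378, 371, 355 and 290 CPM in AD-HFD, at 863, 880, 301 and 660 CPM in AD and at 649, 544, 666 and 656 CPM in Sham. Every AD-HFD library was below every Sham library, and AD-3 was within the AD-HFD range. The log2 fold change was -0.85 ± 0.272 for AD-HFD against Sham (edgeR adjusted p = 0.0326), -0.96 ± 0.272 for AD-HFD against AD (edgeR adjusted p = 0.0643) and 0.10 ± 0.270 for AD against Sham (edgeR adjusted p = 0.851). The fall in AD-HFD against Sham was no longer called without AD-HFD-1, AD-HFD-2, AD-HFD-4, Sham-1, Sham-3 or Sham-4 (edgeR adjusted p 0.0557 to 0.0860), with log2 fold changes of -0.77 or lower. In counts of libraries that do not overlap, 5 members were higher and 1 lower in AD-HFD against Sham (18.9% and 16.2% of all genes), and 4 were higher in AD against Sham (10.3% of all genes). None of the 10 separated AD-HFD from AD (5.46% of all genes in either direction).

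Ratios between related genes within a library do not depend on library scaling, but they can differ with the mix of cells and regions sampled. Marker sums of neurons, cortical excitatory neurons and endothelium differed between the libraries, as given above, and their part in these ratios was not tested. The log2 ratio of Ldha to Ldhb counts was 0.53, 0.50, 1.52 and 0.84 in AD-HFD, -2.13, -2.12, 2.06 and -0.79 in AD and -0.49, -0.44, -0.56 and -0.71 in Sham. Ldha exceeded Ldhb in counts in all AD-HFD libraries and in AD-3, and in no other library. The mean was 0.85 ± 0.473 in AD-HFD and -0.55 ± 0.119 in Sham (SD, n = 4 each), a difference of 1.40 ± 0.244 (exact two-sided permutation p = 0.0286, the smallest that 4 against 4 allows). The AD mean was -0.75 ± 1.97, and AD differed from Sham by -0.19 ± 0.987 (exact permutation p = 0.886). Without AD-3 that difference was -1.13 (exact permutation p = 0.0286, the smallest that 3 against 4 allows), with AD lower.

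The log2 ratio of Hk2 to Hk1 was -2.83, -2.76, -2.95 and -1.86 in AD-HFD, -4.44, -4.42, -2.31 and -4.14 in AD and -5.80, -5.27, -5.67 and -5.86 in Sham. AD-HFD exceeded Sham by 3.05 ± 0.283 and AD exceeded Sham by 1.82 ± 0.527, without overlap (exact permutation p = 0.0286 each), while AD-HFD and AD overlapped through AD-3 (difference 1.23 ± 0.569, exact permutation p = 0.114). The Slc2a3 to Slc2a1 ratio was lower than in Sham by 2.09 ± 0.473 in AD-HFD and by 1.43 ± 0.275 in AD (exact permutation p = 0.0286 each), and AD-HFD and AD overlapped (difference -0.66 ± 0.502, exact permutation p = 0.286). Adjusted by Benjamini-Hochberg over the 9 ratio tests, the 5 smallest exact permutation p became 0.0514, so none passes after correction. In each of these 5 comparisons the 8 libraries did not overlap between groups, and p was the smallest that 4 against 4 allows. The adjusted value therefore follows from how many of the 9 tests reached that smallest p, and does not grade the size of the differences.

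**Figure D3:**
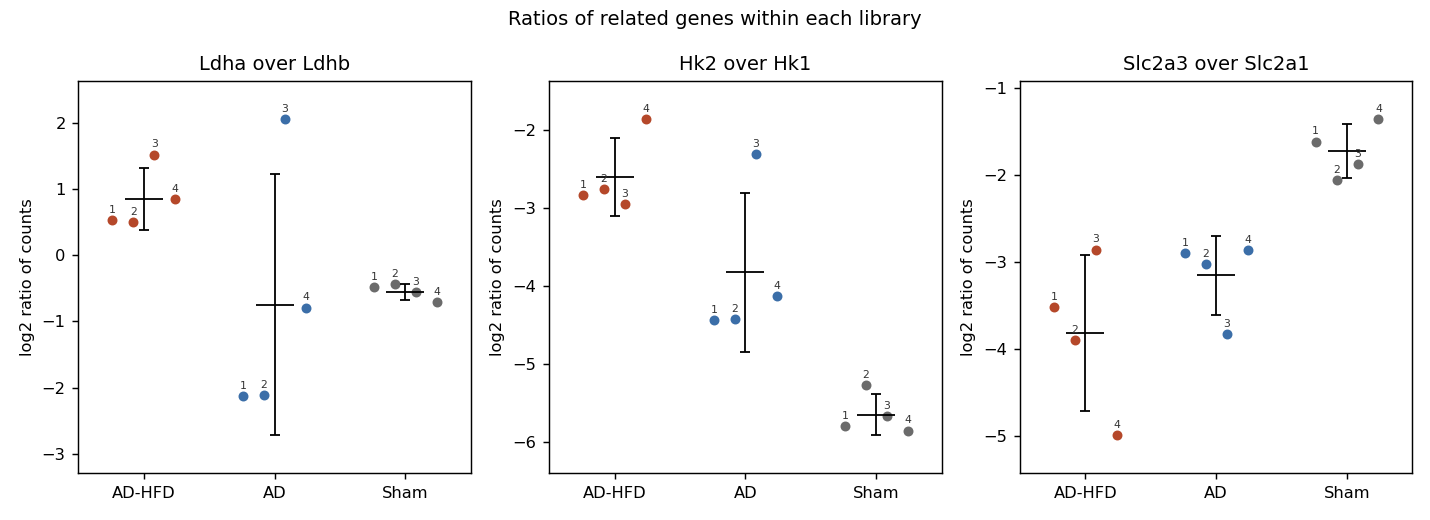
Log2 ratios of counts of Ldha to Ldhb, Hk2 to Hk1 and Slc2a3 to Slc2a1; each point is 1 library with its replicate number, bars are mean ± SD (n = 4). AD-HFD and Sham do not overlap in any of the 3 panels, and AD-3 lies apart from AD-1, AD-2 and AD-4 in each.

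The calls between AD-HFD and AD depended on AD-3. With all libraries none of the 10 members passed in edgeR at an adjusted p under 0.05; 2 (Hk3 and Ldhb) passed at an unadjusted p under 0.05, as did 30.5% of all genes, and DESeq2 called 1 (Ldhb), with 17.7% of all genes called. Without AD-3, edgeR called 5 members: Slc2a1 (log2 1.28, adjusted p = 0.00391), Hk2 (1.79, adjusted p = 0.00210), Pfkfb3 (1.53, adjusted p = 0.000632) and Ldha (1.32, adjusted p = 0.00971) were higher in AD-HFD, and Ldhb (-1.20, adjusted p = 0.00107) was lower. In that fit 30.3% of all genes were called. Without AD-HFD-3, the other library rich in cortical markers, edgeR called Hk3 (2.46, adjusted p = 0.0431) and Ldhb (-0.97, adjusted p = 0.0360), with 27.6% of all genes called. In AD against Sham, 3 members (Slc2a1, Hk2 and Hk3) passed at an unadjusted p under 0.05, against 24% of all genes, and DESeq2 called the same 3, with 13.9% of all genes called. With AD-3 as the only AD library, 5 were called against Sham by edgeR: Slc2a1, Hk2, Pfkfb3 and Ldha higher and Ldhb lower, under the assumption that AD-3 varies as the other groups do. In that fit 6.21% of all genes were called, and AD-3 stands out for several of these same members, so the count is a description of 1 library. Brain-region markers differed between these libraries, and their part in the member values was not tested.

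**Figure D4:**
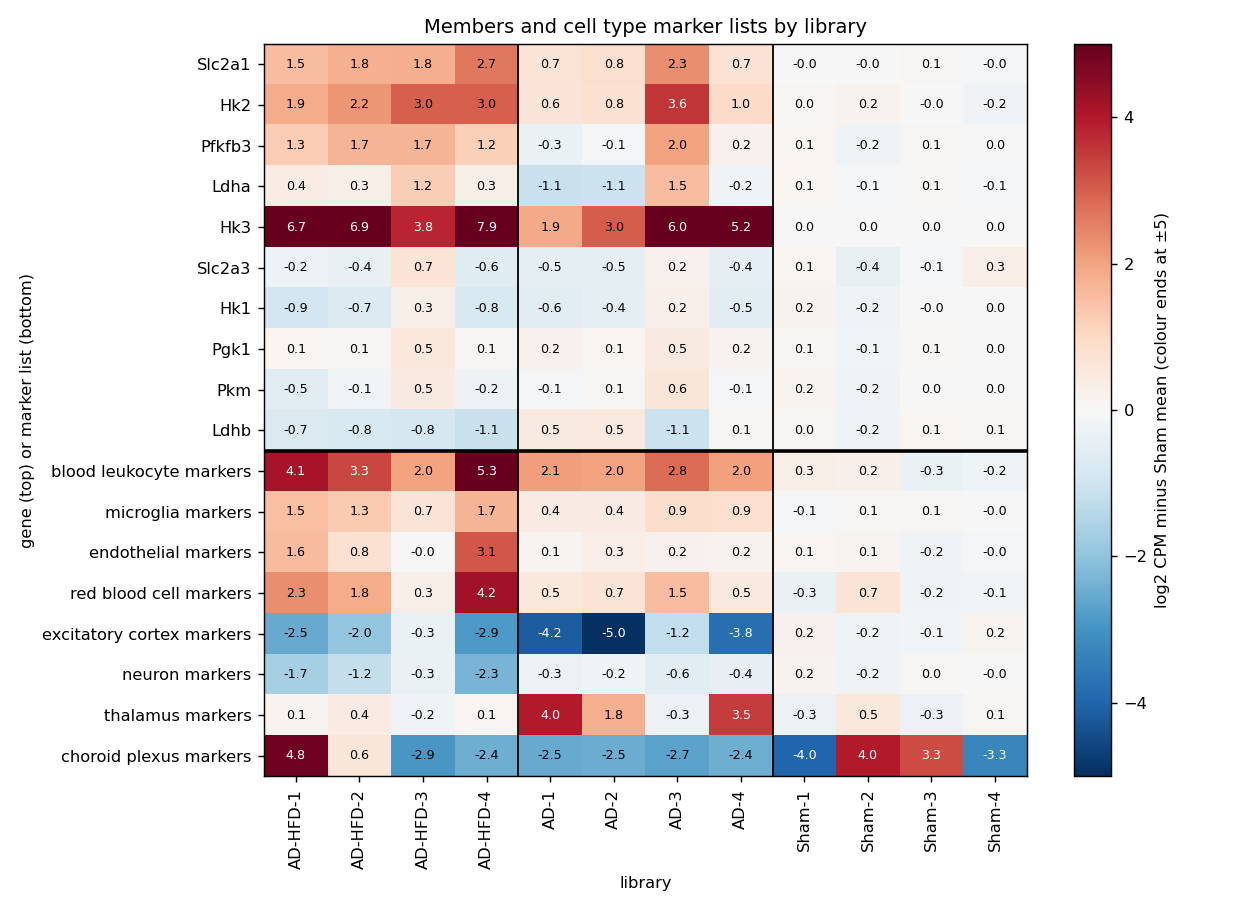
Log2 CPM minus the Sham mean for the 10 genes (above the line) and for the mean of 8 marker lists (below it) in each library; red is higher and blue lower than Sham, and the colour ends at ±5. Slc2a1, Hk2, Pfkfb3 and Ldha are red and Ldhb is blue in AD-3 and in all AD-HFD libraries, while Ldha is blue and Ldhb pale red in AD-1 and AD-2. Thalamus markers are high there and also in AD-4, whose Ldha and Ldhb are near Sham.

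Across the 12 libraries, the genes whose log2 CPM was most like that of the called members, among 14250 other named genes, were Errfi1 for Slc2a1 (Pearson r = 0.983), Kdm6b for Hk2 (0.979), Fermt3, a leukocyte integrin adaptor, for Hk3 (0.988), Inhba, an activin subunit, for Pfkfb3 (0.980) and Auh, a mitochondrial enzyme of leucine breakdown, for Ldhb (0.984). After subtracting group means they were Col6a1 for Slc2a1 (0.986), Haus8 for Hk2 (0.989), Tyrobp, a myeloid adaptor, for Hk3 (0.980), Npy for Pfkfb3 (0.990) and Slc6a11, an astrocyte GABA transporter, for Ldhb (0.985). For the other 5 members the closest genes were B4galt3 for Slc2a3 (0.922), Clstn2 for Hk1 (0.977), Kdm7a for Pgk1 (0.918), Iffo1 for Pkm (0.956) and Akirin2 for Ldha (0.966). After subtracting group means they included Bap1 for Slc2a3 (0.955), Rapgef2 for Hk1 (0.986), Pfkl for Pgk1 (0.949) and Mtcl1 for Pkm (0.985). These are descriptions over libraries that fall into clusters, the first set includes the differences between groups, and the best of many genes is high by selection.

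Glycolysis genes other than the members did not pass as higher in any comparison. Of 18 other glycolysis genes tested, none rose and 1 fell in AD-HFD against Sham. The list median was -0.25, against 0.033 for all genes, and the gene that fell was Pfkm, a phosphofructokinase subunit. Pfkm averaged 243 ± 98.0 CPM in AD-HFD and 555 ± 53.9 CPM in Sham (SD, n = 4 each; log2 -1.19 ± 0.283, edgeR adjusted p = 0.0102). Neuron markers fell in AD-HFD against Sham, as given above, and their part in the Pfkm result was not tested. Eno2 belongs to both the neuron and the glycolysis list. Eno1 did not pass, although every AD-HFD library (833 to 1230 CPM) and AD library (853 to 1226 CPM) exceeded every Sham library (624 to 783 CPM). Of all genes, 18.9% were higher without overlap in AD-HFD against Sham and 10.3% in AD against Sham. None of the 18 passed in AD against Sham or in AD-HFD against AD by edgeR (medians -0.0084 and -0.24). Eno1, an enolase (0.41 ± 0.179), was among those with the smallest p in the first. The smallest in the second were those of Pfkm (-1.01 ± 0.282) and Aldoc, the astrocyte aldolase (-1.29 ± 0.365). Aldoc stood at 1922, 2249, 475 and 1238 CPM in AD-1 to AD-4 and at 489 to 680 CPM in AD-HFD. AD-3 also stood apart in brain-region markers, whose part was not tested.

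Of 16 tested genes of glucose, lactate and pyruvate transport, 3 rose and 2 fell in AD-HFD against Sham (median 0.085), shares near the 19.7% and 12.9% of all genes. Slc16a1, the lactate transporter MCT1 of endothelium and glia, stood at 182, 175, 85.6 and 169 CPM in AD-HFD, at 86.3, 97.5, 114 and 96.3 CPM in AD and at 41.0, 60.0, 55.0 and 46.0 CPM in Sham. It rose in AD-HFD (log2 1.60 ± 0.226, edgeR adjusted p = 0.00187) and in AD (0.96 ± 0.222, edgeR adjusted p = 0.0285), both without overlap with Sham. Slc16a3, the lactate exporter MCT4 of glycolytic cells, stood at 12.1, 18.3, 14.7 and 22.5 CPM in AD-HFD, at 2.28, 3.94, 20.5 and 4.06 CPM in AD and at 1.78, 2.49, 2.35 and 1.27 CPM in Sham. It rose in AD-HFD (log2 3.10 ± 0.616, edgeR adjusted p = 0.00512) and was, like Hk2, high in AD-3 alone among the AD libraries. Slc2a9, a urate transporter of the glucose transporter family, rose (1.60 ± 0.404) and Slc2a13, the proton-coupled inositol transporter of brain, fell (-1.26 ± 0.278) in AD-HFD against Sham. In AD against Sham 1 rose and 2 fell (median 0.0093; 3.07% and 3.16% of all genes), the falls being Slc16a7, the neuronal lactate transporter MCT2 (-1.17 ± 0.239), and Slc2a10 (-1.64 ± 0.355). None passed in AD-HFD against AD, where Slc2a9 (2.12 ± 0.422) and Slc2a6 (-0.62 ± 0.195) had the smallest p (edgeR adjusted p = 0.0605 and 0.0745).

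Of 14 tested genes of pyruvate entry into mitochondria, 4 fell and 1 rose in AD-HFD against Sham (12.9% and 19.7% of all genes), with a median of -0.16 against 0.033 for all genes. Pdk4, a kinase that switches pyruvate dehydrogenase off, rose (log2 2.76 ± 0.543, edgeR adjusted p = 0.00496) and stood between 3.81 CPM (AD-HFD-3) and 34.1 CPM (AD-HFD-4) in AD-HFD and at 2.04, 3.80, 3.16 and 2.24 CPM in Sham. Its level in AD-HFD-3 was barely above the highest Sham library. Over AD-HFD-1 to AD-HFD-4 the leukocyte marker sum was 163, 94.4, 36.8 and 340 CPM and the endothelial sum 1005, 623, 408 and 3229 CPM, so that Pdk4 and both sums were highest in AD-HFD-4 and lowest in AD-HFD-3. The part of these cells in the Pdk4 result was not tested. The pyruvate dehydrogenase subunit Pdha1 (-0.84 ± 0.231), the kinase Pdk2 (-0.94 ± 0.266) and pyruvate carboxylase, Pc (-0.91 ± 0.220), fell. None of the 14 passed in AD against Sham (median 0.026), where Pdk4 (1.59 ± 0.534) and Pdk1 (-0.61 ± 0.226) had the smallest p. None passed in AD-HFD against AD either (median -0.25), where Pc (-1.02 ± 0.220) and the D-lactate dehydrogenase Ldhd (-1.17 ± 0.371) had the smallest p. Within AD both were lowest in AD-3, Pc at 82.6 CPM against 113 to 166 CPM and Ldhd at 5.78 CPM against 18.6 to 24.7 CPM. The part of brain region in these values was not tested.

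Of 18 tested genes of the pentose phosphate pathway and glycogen, 4 rose and 1 fell in AD-HFD against Sham (median 0.27), beside 19.7% and 12.9% of all genes. The risers with the smallest p were the pentose phosphate enzymes Taldo1 (1.01 ± 0.218), Rpe (0.81 ± 0.199) and Rpia (1.66 ± 0.410), and Tigar, a phosphatase that lowers fructose 2,6-bisphosphate, fell (-0.70 ± 0.153). Taldo1 stood at 182, 193, 134 and 295 CPM and Rpia at 20.5, 18.2, 12.1 and 52.7 CPM in AD-HFD-1 to AD-HFD-4. Both were highest in AD-HFD-4 and lowest in AD-HFD-3, like the leukocyte and endothelial marker sums given beside Pdk4, whose part was not tested. None passed in AD against Sham (median 0.31; Pygl 1.83 ± 0.522 and Gbe1 0.54 ± 0.214 had the smallest p) or in AD-HFD against AD (median -0.14; Pgm2 1.31 ± 0.336 and Taldo1 0.81 ± 0.217).

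Of 19 hypoxia-inducible factor genes and targets, 9 rose and 1 (Mxi1) fell in AD-HFD against Sham (19.7% and 12.9% of all genes), with a median of 0.84 against 0.033 for all genes, also with Car9 (no Sham counts) at its bound. Those with the smallest p were the peptide adrenomedullin, Adm (4.81 ± 0.670), Hif1a itself (1.48 ± 0.260), the oxygen sensor Egln1 (1.02 ± 0.191) and the collagen hydroxylase P4ha1 (0.86 ± 0.169). Hif1a stood at 308, 218, 226 and 395 CPM in AD-HFD, at 151, 141, 303 and 165 CPM in AD and at 97.7, 111, 99.6 and 102 CPM in Sham. AD-3 was again the highest AD library. Within AD-HFD, Adm (57.6 CPM), Hif1a and Egln1 (63.2 CPM) were highest in AD-HFD-4, and P4ha1 in AD-HFD-3 (88.1 CPM). AD-HFD-4 also had the highest leukocyte, endothelial and red blood cell sums (340, 3229 and 4223 CPM), whose part was not tested. Bnip3 was not among the risers, at 115 to 218 CPM in AD-HFD and 213 to 230 CPM in Sham. In AD against Sham, Adm (3.19 ± 0.651) and Egln1 (0.82 ± 0.190) rose and Mxi1 fell (-0.87 ± 0.143; median 0.46), and in AD-HFD against AD none passed (median 0.30; Adm 1.62 ± 0.552 and P4ha2 0.66 ± 0.227 had the smallest p).

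**Figure D5:**
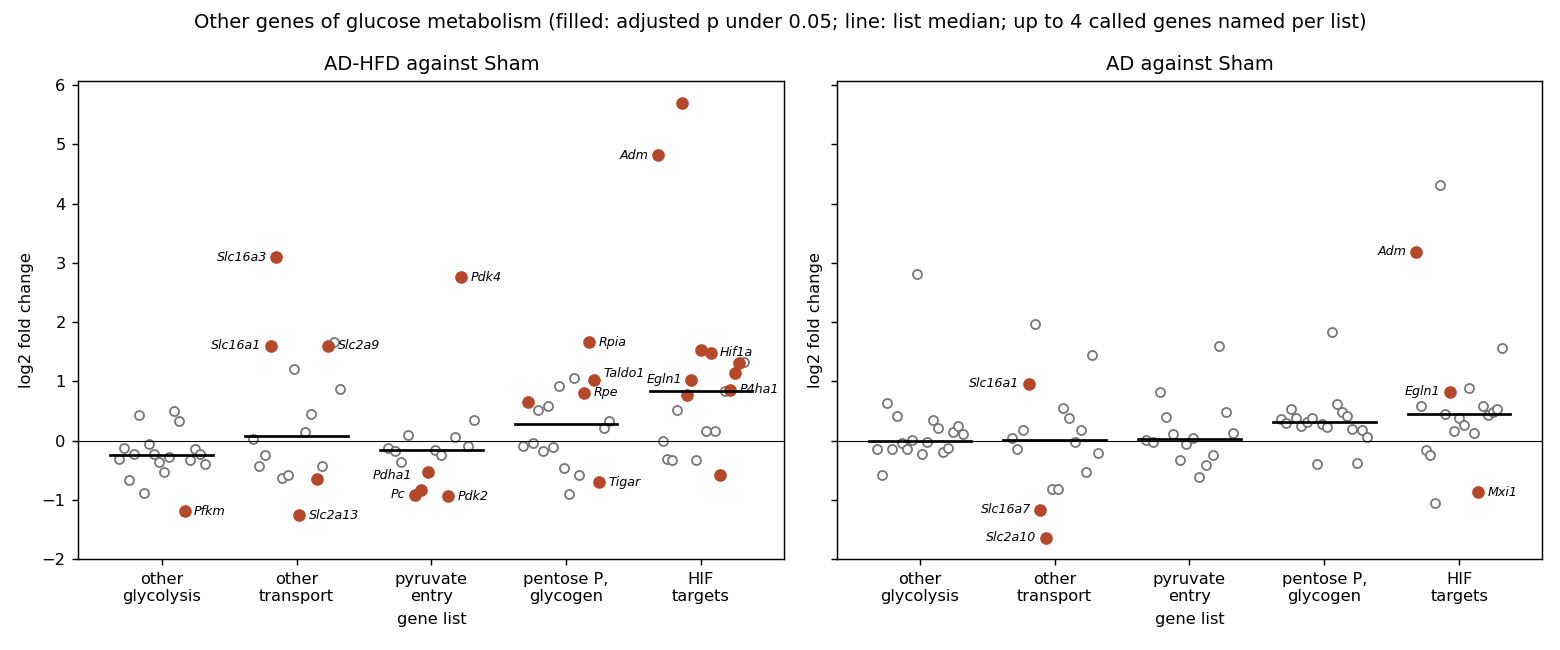
Log2 fold changes of the tested genes of 5 lists in AD-HFD against Sham (left) and AD against Sham (right); filled points passed at an adjusted p under 0.05, lines are list medians, up to 4 called genes per list are named, and the unnamed topmost point of the HIF list in each panel, Car9, is drawn at its lower bound. Of the other glycolysis genes 1 is filled on the left and none on the right, while transport and HIF target genes are filled in both panels.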

How the data were processed

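Brain RNA of 12 samples was analysed. As deposited, the data are raw read counts in a single gene-by-library table without further per-sample columns. Groups and replicate numbers come from the library names. Per the submitters' processing notes, FastQC and Trimmomatic were used; aligner, read counter, strandedness, build and annotation are not given in the sources used here. The promoter coordinates are those of RefSeq on GRCr8. The labels' protocols name TRIzol extraction and a Yeasen mRNA library kit.

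Counts were fitted in R 4.3.3 with edgeR 4.0.16 (filterByExpr, TMM, quasi-likelihood with the non-legacy method) over all 12 libraries with 1 mean per group; 18850 of 31177 rows were tested, among them unnamed new loci, and calls were made at a Benjamini-Hochberg adjusted p under 0.05 over all of them. SE is the log2 fold change divided by the square root of F. Ratios used counts plus 0.5 and an exact permutation test over 70 splits. Likeness used log2 CPM with a prior count of 2. The floor is 3 counts over a group, for counting error only. The alternatives included DESeq2 1.42.0, and the fits were tested on simulated data. The members and lists were chosen with earlier results of these data known. All members were described; of each other list, up to 4 called genes with the smallest p per comparison were named, or 2 where none was called, and for each member the gene with the highest r; 2 genes that this rule names are not reported here. Hif1a, Ly6e, P2ry12, Mxi1, Car9 and other single genes outside this rule were chosen after their values were seen. No library pair agreed within sampling noise. Same-numbered libraries of different groups had correlated deviations from their group means of -0.317 to 0.0947, so the numbers were not taken to pair them.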

Additional observations from a re-analysis of the deposited data

Results flagged for a closer look

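In groups of 4, a library was noted where its gap to the nearest other, over the group's range, exceeded Dixon's 95% critical value. Of 39 groups checked, 11 had such a library. For a single group chance gives about 1 in 20. The 39 groups share libraries, the genes are correlated and the ratios reuse their counts, so the count of 11 cannot be set against chance. AD-3 was the library in 7 of the 11. It was high within AD for Slc2a1 (556 CPM against 181 to 195 in the other AD libraries), Slc2a3 (39.1 CPM against 23.9 to 25.0), Hk1 (403 CPM against 232 to 251), Hk2 (81.2 CPM against 10.7 to 13.3) and Pfkfb3 (223 CPM against 44.1 to 64.2). Its log2 ratio of Hk2 to Hk1 was high, at -2.31 against -4.44 to -4.14, and its log2 ratio of Slc2a3 to Slc2a1 low, at -3.83 against -3.03 to -2.87.

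AD-HFD-3 was high within AD-HFD for Hk1 (421 CPM against 177 to 211), Pgk1 (809 CPM against 582 to 600) and Ldha (1014 CPM against 519 to 546). Sham-2 was low within Sham for Ldhb, at 544 CPM against 649 to 666. Both AD-3 and AD-HFD-3 were the libraries of their group with the highest cortical marker sums; the part of tissue sampling in these values was not tested.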

How the results depend on the processing

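Slc2a1, Hk2 and Hk3 were called in AD-HFD against Sham in every fit that left out 1 library. The count of 5 members called there ranged from 3 to 6 in those fits, and was 3 without AD-HFD-3 and AD-HFD-4, a setting chosen after seeing the data, where Hk2 (log2 2.04, edgeR adjusted p = 0.0546), Pfkfb3 (1.48, 0.0582) and Ldhb (-0.75, 0.127) were lost and Hk1 (-0.82, 0.0254) was called. In AD against Sham the count of 0 members ranged from 0 to 2 when 1 library was left out. It was 1 with RLE scaling, with no filter and with the compared groups alone (Slc2a1, adjusted p 0.0461 to 0.0499), 1 with the legacy method (Hk3), 3 with DESeq2 and 5 with AD-3 as the only AD library. In AD-HFD against AD the 0 members ranged from 0 to 5, and DESeq2 called 1.

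Over all genes, the 1174 called in AD against Sham ranged from 302 (without Sham-1) to 2329 (without AD-3) and were 2602 with DESeq2 and 2363 with the compared groups alone. The 2 called in AD-HFD against AD ranged from 0 to 5841 and were 3311 with DESeq2, 5 with the replicate block, 0 with the compared groups alone or with AD-3 as the only AD library, and 1898 without AD-HFD-3 and AD-HFD-4. The 6162 in AD-HFD against Sham ranged from 3514 to 8615.

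Directions changed for values that had not passed. Leaving out 1 library, the ranges were -0.058 to 1.04 for Pfkfb3, -0.029 to 0.26 for Pkm, -0.72 to 0.52 for Ldha and -0.014 to 0.35 for Ldhb in AD against Sham; -0.52 to 0.076 for Hk1, -0.16 to 0.043 for Pgk1 and -0.15 to 0.42 for Slc2a3 in AD-HFD against AD; and -0.30 to 0.058 for Pkm and -0.43 to 0.080 for Slc2a3 in AD-HFD against Sham. With AD-3 as the only AD library, AD against Sham gave 0.18 for Slc2a3, 0.23 for Hk1 and -1.07 for Ldhb, and AD-HFD against AD gave -0.30 for Slc2a1, -0.25 for Slc2a3, -0.98 for Hk2, -0.54 for Pfkfb3, -0.94 for Ldha and 0.21 for Ldhb. Without AD-HFD-3 and AD-HFD-4, AD-HFD against AD gave -0.051 for Slc2a3 and -0.068 for Hk2. The cause was not tested.

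The replicate block changed no member call and gave -0.17 for Ldha in AD against Sham; 12 of 12 same-number correlations were under 0.1, and no library correlated best with its own number. Pairing leaves the ratio differences as they were (1.40 for Ldha to Ldhb, 3.05 for Hk2 to Hk1 and -2.09 for Slc2a3 to Slc2a1 in AD-HFD against Sham, and 1.82 and -1.43 for the last pair of ratios in AD against Sham), but its exact sign-flip test cannot go below p = 0.125. Without 1 library the Ldha to Ldhb difference ranged from -1.13 to 0.27 in AD against Sham and from 1.13 to 2.53 in AD-HFD against AD, that of Hk2 to Hk1 from 0.98 to 1.73 in AD-HFD against AD, and that of Slc2a3 to Slc2a1 from -2.41 to -1.70 in AD-HFD against Sham. Of 609 recomputed member fold changes 548 kept their direction and side of the threshold. Depth limits Hk3, with 5 counts in AD-1, more than the other members.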
